A study of Mus musculus with 16 samples.

Results

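Igf1, Igfbp2 and Nudt7 are the 3 genes described here, out of 9669 genes named on the arrays. They were proposed with earlier results of these data known. Their probes were picked by symbol: a probe was taken where its annotation gave Igf1, Igfbp2 or Nudt7 as its one gene. Each symbol had 1 probe, so the members are 3 of 20419 probes, and all 3 had a value on every one of the 16 arrays. RNA from the kidney and the liver of adult male C3HeB/FeJ mice, an inbred wild-type strain kept free of specified pathogens, was compared on cDNA arrays with 2 colours. The kidney arrays (7) each held the left kidney of mouse 1, 2 or 3 against a pool of 5 livers, with 3, 3 and 1 arrays per mouse. The liver arrays (9) each held the dorsal liver lobe of the same mouse 1, 2 or 3 against a pool of 5 kidneys, with 3 arrays per mouse. The mice were 105 ± 5 days old, and the labels name no treatment. The pools carry no animal-to-animal spread of their own, and repeated arrays of a mouse's organ measure the same RNA again.

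Growth hormone from the pituitary binds its receptor on hepatocytes, which activates the kinase Jak2 and the transcription factors Stat5a and Stat5b. A well-known target is Igf1, which encodes insulin-like growth factor 1, a hormone that the liver releases into blood and that many other organs also make for local use. In blood most IGF1 is carried by binding proteins, among them IGFBP3 in a complex with the acid-labile subunit, and IGFBP2, the product of Igfbp2. Nudt7 encodes a peroxisomal Nudix hydrolase that cleaves coenzyme A and its acyl esters, and it belongs to lipid metabolism rather than to growth hormone signalling. The 3 genes are therefore described beside the hormone pathway and beside the genes of coenzyme A metabolism.

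Signed values are on the log2 scale and give kidney over liver, so a negative value means more RNA in liver. Neither the numerator of the ratio nor the base of the logarithm is stated in the labels, and the base was read from the values. In the titles the mouse comes before the pool, but read in that order albumin (Alb), the main plasma protein made by hepatocytes, would be a kidney transcript. The deposited values were therefore taken as pool over single mouse, against the title order. Under the title order the organs would swap places in each kidney and liver comparison, and the order of the mice within a kind of array would turn round, with sizes and tests as given. In this direction the 7 hepatocyte markers were all higher in liver with a median of -7.60, and the 5 proximal tubule markers tested were all higher in kidney with a median of 5.16, but the direction was chosen on such markers. The arrays of mouse 2 stood apart. Their medians over all probes lay between -1.49 and -1.19, whereas the medians of the other 10 arrays differed from 0 by at most 0.00267. The members are among 2967 probes whose exact values seldom repeat within an array, called bright here although intensities are unknown. The median of these bright probes on the arrays of mouse 2 was between -0.149 and 0.09, against 0.101 to 0.409 on the other arrays. RNA came from bulk tissue, so fewer cells of a type and less RNA per cell cannot be told apart.

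The stretch in front of a transcript start of each gene is shown because the 3 genes lie on the same side of the organ comparison. Each sequence is the 250 bases before a transcript start on the plus strand, from RefSeq on build GRCm38.p6, printed 5′ to 3′. Igf1 spans chr10:87858265-87937047, and its window is chr10:87860861-87861110, before a transcript that starts 2846 bases inside the annotated gene. The stretch before the annotated start of Igf1 was not searched. Igfbp2 spans chr1:72824480-72852474, with the window chr1:72824230-72824479. Nudt7 spans chr8:114133574-114154731, with the window chr8:114133324-114133573. Capitals mark the one motif match.
Igf1: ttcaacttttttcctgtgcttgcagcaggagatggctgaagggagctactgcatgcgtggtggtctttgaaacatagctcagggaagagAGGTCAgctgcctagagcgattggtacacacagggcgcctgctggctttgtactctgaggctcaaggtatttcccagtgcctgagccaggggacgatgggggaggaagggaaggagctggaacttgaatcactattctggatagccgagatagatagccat
Igfbp2: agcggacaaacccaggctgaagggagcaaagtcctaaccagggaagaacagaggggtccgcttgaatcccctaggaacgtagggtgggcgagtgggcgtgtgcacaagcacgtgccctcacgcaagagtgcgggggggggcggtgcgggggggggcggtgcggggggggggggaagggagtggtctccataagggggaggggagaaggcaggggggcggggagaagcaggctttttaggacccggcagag
Nudt7: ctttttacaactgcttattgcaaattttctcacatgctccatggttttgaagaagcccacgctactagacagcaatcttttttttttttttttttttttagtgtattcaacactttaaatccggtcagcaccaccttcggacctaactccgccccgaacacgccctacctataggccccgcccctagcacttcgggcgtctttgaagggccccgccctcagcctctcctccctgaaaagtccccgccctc
The windows hold 52.8%, 67.2% and 49.2% of G and C in Igf1, Igfbp2 and Nudt7. Motifs were searched on both strands. The Stat5 motif TTCNNNGAA, the C/EBP motif TTGCNNAA, the HNF1 half-site GTTAAT and the TATA motif TATAAA had no match in these windows. The nuclear receptor half-site AGGTCA matched once, in the Igf1 window at position -161 counted from the start. A further window of Igfbp2 and one of Nudt7, not printed here, had no match of any of these motifs. Of 32851 windows of the same length, 7.02%, 9.564%, 6.432% and 12.368% hold the Stat5, C/EBP, HNF1 and TATA motifs and 14.024% hold AGGTCA. A match is only a match of letters.

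Igf1 was higher in liver on all 16 arrays. On the kidney arrays the values were -3.13, -3.68 and -3.47 for mouse 1, -4.30, -3.58 and -3.85 for mouse 2, and -3.61 for mouse 3. On the liver arrays they were -3.33, -3.42 and -2.85 for mouse 1, -4.22, -4.29 and -4.15 for mouse 2, and -5.01, -5.29 and -4.36 for mouse 3. The mice overlap on the kidney arrays, while as deposited the 9 liver arrays separate by mouse. With each array centred on its median mouse 2 lies between -2.95 and -2.80 on liver arrays and overlaps mouse 1, and mouse 3 stays apart. Averaged per mouse, Igf1 was -3.65 ± 0.243 on kidney arrays and -4.10 ± 0.847 on liver arrays (SD, n = 3 mice each). Across both kinds of array the difference was -3.87 (SE 0.266, 95% interval -4.48 to -3.27), which is 14.7-fold higher in liver with an interval of 9.62-fold to 22.4-fold (limma, adjusted p = 2.88e-05). The organ difference was larger than the SD of 0.327 between hybridisations and of 0.623 between mice.

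Igfbp2 was higher in liver on all 16 arrays as well, and its values spread least. Kidney arrays gave -4.29, -3.81 and -4.49 for mouse 1, -4.35, -4.17 and -4.56 for mouse 2, and -4.50 for mouse 3. Liver arrays gave -4.08, -3.84 and -3.43 for mouse 1, -3.17, -3.85 and -4.01 for mouse 2, and -4.16, -4.24 and -4.41 for mouse 3. The kidney and liver arrays overlap. Among kidney arrays the mice overlap too, but among liver arrays mouse 3 lies below mice 1 and 2. The mean was -4.35 ± 0.152 on kidney arrays and -3.91 ± 0.316 on liver arrays (SD, n = 3 mice each). The fit gave -4.13 (SE 0.212, 95% interval -4.62 to -3.65), which is 17.5-fold higher in liver, between 12.5-fold and 24.5-fold (limma, adjusted p = 6.08e-06). The SD was 0.311 between hybridisations and 0.248 between mice.

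Nudt7 had the largest organ difference of the 3 genes. Its kidney arrays read -4.00, -4.08 and -5.41 for mouse 1, -5.24, -6.14 and -4.93 for mouse 2, and -5.07 for mouse 3. Its liver arrays read -5.04, -4.61 and -4.86 for mouse 1, -4.90, -4.49 and -4.95 for mouse 2, and -5.43, -5.78 and -5.21 for mouse 3. The kidney arrays reach further in both directions than the liver arrays, and the 3 kidney arrays of mouse 1 span more than the 6 averages do. Nudt7 averaged -5.00 ± 0.473 on kidney arrays and -5.03 ± 0.386 on liver arrays (SD, n = 3 mice each). The difference was -5.02 (SE 0.234, 95% interval -5.55 to -4.48), or 32.3-fold higher in liver with an interval of 22.3-fold to 46.9-fold (limma, adjusted p = 3.44e-06). The SD was 0.493 between hybridisations and 0.432 between mice.

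**Figure D1:**
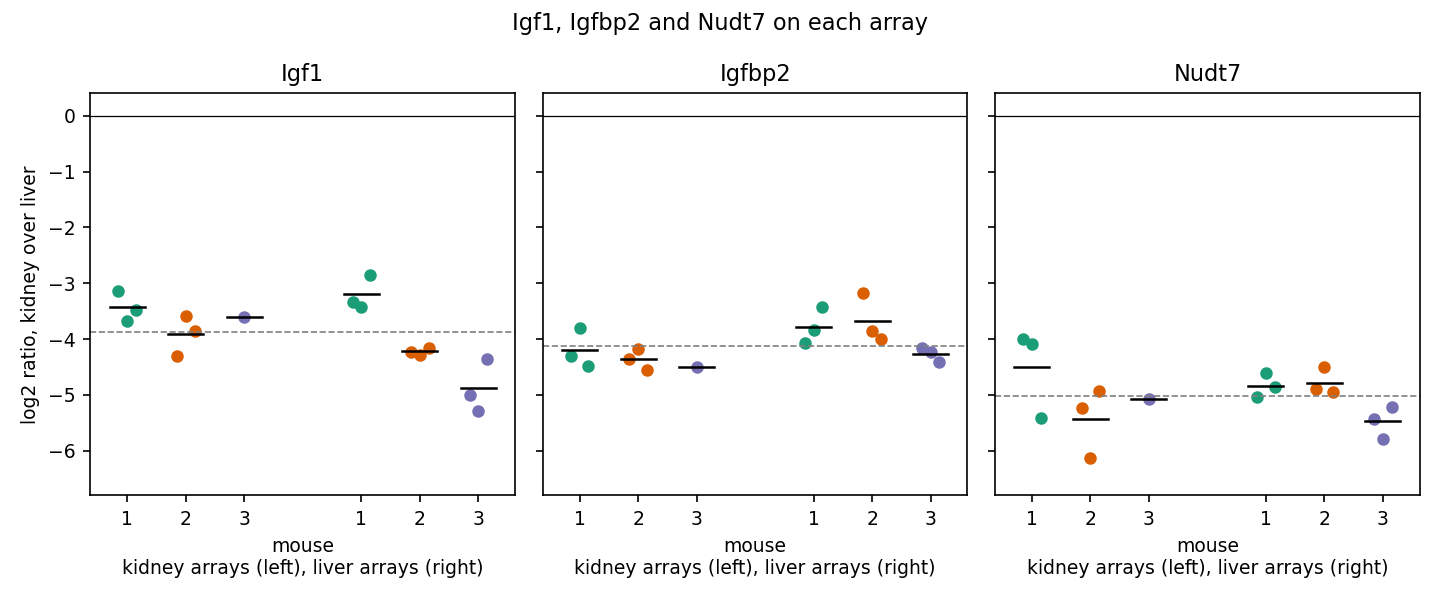
Log2 ratio of kidney over liver (y axis) on each of the 16 arrays for Igf1, Igfbp2 and Nudt7, with kidney arrays left and liver arrays right, by mouse on the x axis. Points are single arrays, short bars the mean of a mouse and organ, the dashed line the estimate of the fit, and the solid line 0. Values are as deposited. Every point lies below 0, and for Igf1 on the liver arrays mouse 3 lies below mouse 1, and mouse 2 between them.

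All 3 genes passed the test for kidney against liver, in the direction of liver. They were chosen with earlier results of these data known, so their calls and ranks are descriptive. In the same fit 12.2% of 16886 features passed, 7.41% higher in liver and 4.82% higher in kidney. Among 9047 named genes ranked from the largest liver excess, Nudt7 was 47th, Igfbp2 63rd and Igf1 77th. Over all features the kidney and liver averages of one animal deviate together, which the fit left out, so its SE tends to be too small. The scaling of mouse 2 is unsettled, and its part in these shared deviations was not tested. With the mouse as a replicate block the SE was 0.469 for each of the 3 genes, because that fit shared one variance, so its adjusted p (1.52e-14 for Igf1, 1.66e-16 for Igfbp2 and 2.31e-24 for Nudt7, limma) does not reflect the spread of the single gene. With one value per mouse the SE was 0.431, 0.42 and 0.423 for Igf1, Igfbp2 and Nudt7, with an adjusted p of 2.58e-05, 1.11e-05 and 1.59e-06. These near-equal SEs also come mostly from a variance shared by all features. Their adjusted p (limma) therefore does not reflect the spread of the single gene either. With the mouse as a random block the SE was 0.539, 0.441 and 0.498, with an adjusted p of 2.16e-05, 3.98e-07 and 1.2e-07.

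The order of the 3 ratios was the same in most averages. The ratio of Nudt7 was below that of Igfbp2 in 6 of 6 averages of a mouse and organ, by 0.88 on average and by 0.30 to 1.21. It was below that of Igf1 in 6 of 6, by 1.14 on average and by 0.56 to 1.63. Igfbp2 was below Igf1 in 4 of 6 averages only, with differences of Igfbp2 minus Igf1 from -0.89 to 0.61, so these neighbours did not differ beyond their spread. The ranges over the averages, -5.47 to -4.50 for Nudt7, -4.50 to -3.67 for Igfbp2 and -4.88 to -3.20 for Igf1, overlap for each pair. These are ratios between organs and say nothing about which RNA is more abundant in liver.

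The kidney arrays set a single kidney against pooled livers and the liver arrays set a single liver against pooled kidneys, so the same ratio is measured from both sides. The difference of kidney arrays minus liver arrays was 0.45 for Igf1 (95% interval -0.76 to 1.67), -0.44 for Igfbp2 (-1.41 to 0.53) and 0.03 for Nudt7 (-1.04 to 1.10). None of the 3 passed (adjusted p = 1, limma). These intervals leave out that over all features the averages of a mouse deviate together, which tends to make intervals of this contrast too wide. Whether this holds for each of the 3 genes was not tested. The replicate block draws each SE toward a variance shared by all features, so its smaller SE is not the spread of the single gene. With a replicate block for the mouse in this contrast the SE was 0.265, 0.177 and 0.232 for Igf1, Igfbp2 and Nudt7, in place of 0.533, 0.424 and 0.468, and the adjusted p was 0.649, 0.600 and 0.982. Over all 16886 features 0% were called, with 38 at an unadjusted p under 0.05 and 1 called with trend and robust variances.

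The mice were then compared within each kind of array. This comparison used single arrays that repeat the same RNA, so its p-values measure the spread between hybridisations and not between animals of a group. On liver arrays mouse 3 had the most Igf1 RNA in liver relative to the kidney pool in the direction used here, and the least in the title order, with averages of -3.20, -4.22 and -4.88 for mice 1, 2 and 3. The livers of mouse 3 and mouse 1 differed by 1.68, or 3.21-fold. On kidney arrays, which hold the kidney of each mouse against the liver pool, the averages of Igf1 were -3.43, -3.91 and -3.61.

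How many members differed between mice depended on the scaling of mouse 2. With each array centred on its median, 2 of 3 members passed on kidney arrays (Igf1, adjusted p = 0.0206, and Igfbp2, 0.00466; Nudt7, 0.302), where 47.5% of features passed. On liver arrays 3 of 3 passed (Igf1 0.000281, Igfbp2 0.00038 and Nudt7 0.00011 as adjusted p of limma's moderated F), where 37.4% of features passed. Centring moved the members on the arrays of mouse 2 by 1.19 to 1.49, although the bright probes on those arrays had medians near 0. Mouse 2 then had the least negative average of each member on both kinds of array, for example -2.34 against -3.78 and -4.27 in mice 1 and 3 for Igfbp2 on liver arrays. As deposited, 0 of 3 members passed on kidney arrays (adjusted p of 0.202, 0.614 and 0.149 for Igf1, Igfbp2 and Nudt7), where 75.8% of features passed. As deposited on liver arrays, Igf1 (0.000383) and Nudt7 (0.0141) passed and Igfbp2 (0.0829) did not, where 86.4% passed. Both counts as deposited lie below the background of their comparison, but that background includes the shift of mouse 2 over all probes. The members are bright, and the share of bright probes that passed is not given here. The counts therefore do not show that the members vary less between mice than other genes.

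Mouse 2 was then left out and the values were used as deposited, a choice made after seeing the data. On liver arrays the difference of Igf1, mouse 3 minus mouse 1, was -1.68 (adjusted p = 0.0447, limma), with -0.64 for Nudt7 (0.138) and -0.48 for Igfbp2 (0.211). In this comparison 1.19% of 16706 features passed, and Igf1 had the 78th lowest difference. It was the only one called among the 37 genes of the hormone pathway tested there. The pathway partner Igfals differed by -0.45 (adjusted p = 0.143), with -3.82 in mouse 3 and -3.37 in mouse 1. On kidney arrays 0 of the 3 members passed, where 0.051% of 11765 features passed, and Igf1 differed by -0.18. Mouse 3 has 1 kidney array, so its part of that test has no spread of its own. Over all features on liver arrays the difference of mouse 3 minus mouse 1 had a median of -0.06, and its 5th and 95th percentiles were -0.71 and 0.67. The 7 hepatocyte markers had a median of 0.25 in this difference and ranged from -1.14 (Apoa1) to 2.05 (Alb), with 3 of the 7 below 0. Their part in the Igf1 difference was not tested.

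In the pathway of growth hormone and the IGFs, Igf1, Igfbp2, Igfals, Grb14, Igfbp4 and Igfbp6 were higher in liver, and Igfbp3, Igf1r and Igf2r were higher in kidney. The list held 55 genes, of which 38 were on the array and 36 could be tested. Of these, 3 passed on the kidney side and 6 on the liver side, against the 4.82% and 7.41% of all features. Igf1 and Igfbp2 are among the 6. The members and the list were chosen with earlier results known, so the counts are descriptive. The median of the list was -0.50, and that of all features was -0.52. After centring each array, 8 were called on the kidney side and 9 on the liver side, beside 17.6% and 11.9% of all features, with medians of -0.01 for the list and -0.06 for all features. With mouse 2 left out the counts were 6 on the kidney side and 8 on the liver side of 31 tested, beside 18% and 14.5% of all features. With mouse 1 left out they were 1 and 4 of 32, beside 1.54% and 3.11%. After quantile normalization they were 3 and 23 of 36, beside 10.2% and 63.2%.

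Among carriers, Igfals, which encodes the acid-labile subunit, was 9.86-fold higher in liver. It read -3.04, -3.22 and -3.00 on the kidney arrays of mice 1, 2 and 3 and -3.37, -3.35 and -3.82 on their liver arrays, with an estimate of -3.30 (SE 0.208). Igfbp3, whose product joins that subunit in the blood complex, was 5.28-fold higher in kidney, with 2.65, 1.85 and 2.94 on kidney arrays and 2.58, 2.00 and 2.39 on liver arrays (estimate 2.40, SE 0.236). So the 2 carriers of this complex lay on opposite sides in all 6 averages. Igfbp4 (-1.52) and Igfbp6 (-1.51) were higher in liver by less. Igfbp1, another hepatic binding protein, read -0.16 and did not pass (adjusted p = 0.632, limma). Igfbp5 and Igfbp7 were not analysed here.

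Among receptors, Igf1r, the receptor for IGF1, was 3.34-fold higher in kidney (1.74, SE 0.369, adjusted p = 0.0173). Its averages were 3.06, 0.29 and 1.68 on kidney arrays and 2.02, 1.01 and 2.38 on liver arrays for mice 1, 2 and 3. The 2 probes of Igf1r disagree, with 3.07 (SE 0.321) for a probe with values on 16 arrays and -0.42 (SE 0.324) for one with values on 12. Igf2r, the receptor that clears IGF2, was 1.92-fold higher in kidney (0.94, adjusted p = 0.0335), a call lost with the mouse as a replicate block (0.268). The growth hormone receptor Ghr was not analysed here, and Igf2 and Cish, which encodes an inhibitor of cytokine signalling, had too few values to test.

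Jak2, Stat5a, Stat5b and Socs2, which relay or restrain the growth hormone signal, did not pass. Jak2 read -0.77 (adjusted p = 0.188), Stat5a -0.60 (0.173), Stat5b -0.89 (0.105) and the feedback inhibitor Socs2 -0.18 (0.633, limma). The median of all features was -0.52. None of the probes of these genes is bright, and their values were lowest in mouse 2, whose scaling is unsettled. Jak2 read -1.79 and -1.77 on the kidney and liver arrays of mouse 2, and 0.09, -0.04 and -0.25 in its other averages. Without mouse 2, Stat5a read -0.16, Stat5b -0.41 and Socs2 0.26. After centring Stat5b (adjusted p = 0.0499), Socs1, another inhibitor (0.0131), and Foxo3 (0.0394) were also called higher in liver. Newly called higher in kidney after centring were Grb10 (adjusted p = 0.00764), Irs4 (0.0103), Pik3ca (0.00356), Ptpn11 (0.0303) and Map2k1 (0.0445, limma). The insulin receptor gene Insr read -0.66 (0.0765). Grb14, an adaptor that binds and restrains the insulin receptor, was 3.88-fold higher in liver (-1.95, SE 0.229).

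**Figure D2:**
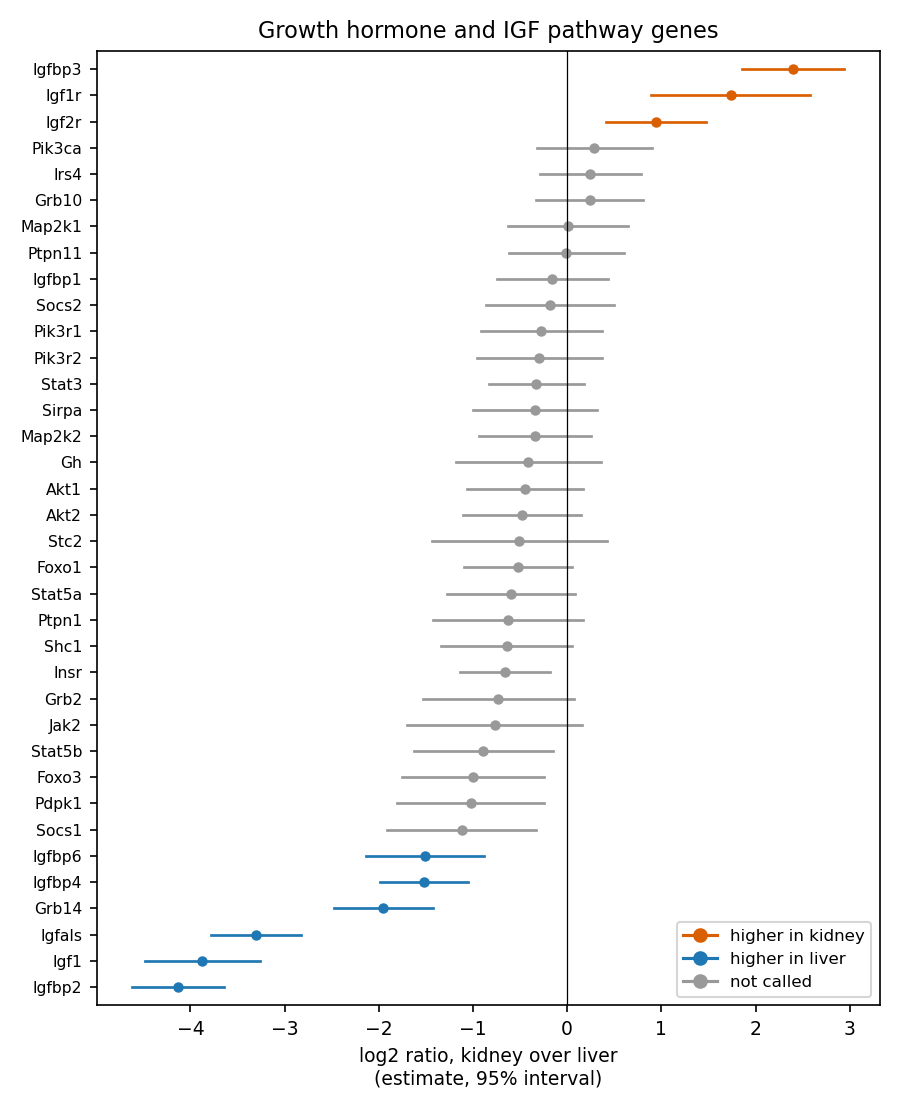
Log2 ratio of kidney over liver (x axis, estimate with 95% interval) for the 36 tested genes of the growth hormone and IGF pathway, sorted by estimate. Orange marks genes called higher in kidney, blue genes called higher in liver, and grey those not called. Igfbp2, Igf1 and Igfals lie furthest to the liver side, and Igfbp3 lies furthest to the kidney side.

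Nudt7 and most of the called genes of coenzyme A metabolism lay on opposite sides. Of 31 genes in that list 16 were on the array and tested. On the kidney side 6 passed and on the liver side 2, beside 4.82% and 7.41% of all features, and the list median was 0.48 beside -0.52 over all features. After centring each array the counts were 9 and 3, beside 17.6% and 11.9%, and the list median was 0.94. The 2 higher in liver were Nudt7, chosen with earlier results known, and Fasn. Fasn, fatty acid synthase, carries a prosthetic group derived from coenzyme A and was 5.01-fold higher in liver (-2.33, SE 0.241). The 6 higher in kidney were small differences: Acot7 (1.00) and Acot13 (0.85), both acyl-CoA thioesterases, Coasy (0.98), which makes coenzyme A in its last steps, Pank1 (0.97), a pantothenate kinase at its first step, the mitochondrial carrier Slc25a16 (0.94) and Nudt8 (0.92), a mitochondrial hydrolase of coenzyme A. With the mouse as a replicate block none of these 6 passed, and their adjusted p lay between 0.25 and 0.297, where 2.5% of all features were called higher in kidney and 3.75% higher in liver. Without mouse 1, and likewise without mouse 3, limma called 0 genes of this list higher in kidney, beside 1.54% and 1.63% of all features. Without mouse 3 it called 2 higher in liver, beside 3.01%. Nudt19, the peroxisomal coenzyme A hydrolase best known from mouse kidney, read 0.30 (SE 0.213, adjusted p = 0.287), and its averages were 0.32, 0.41 and -0.13 on kidney arrays and 0.44, 0.58 and 0.16 on liver arrays. Nudt12, Vnn1 and Slc25a17 were not analysed here.

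Within the Nudix family, whose members cleave nucleotide derivatives, 14 of 24 listed genes could be tested, with 1 called on the kidney side and 3 on the liver side, beside 4.82% and 7.41% of all features. The list median was -0.41, and 0.04 after centring. The 3 include Nudt7, chosen with earlier results known. Besides Nudt7 the liver side held Nudt4, which cleaves inositol pyrophosphates (-1.73, adjusted p = 0.0199), and Nudt22 (-1.14, 0.0423), with Nudt8 on the kidney side. With the mouse as a replicate block Nudt7 and Nudt4 still passed, and Nudt22 (0.157) and Nudt8 (0.275) did not. The other tested members of the family ranged from -1.73 (Nudt4) to 0.92 (Nudt8), beside the -5.02 of Nudt7.

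**Figure D3:**
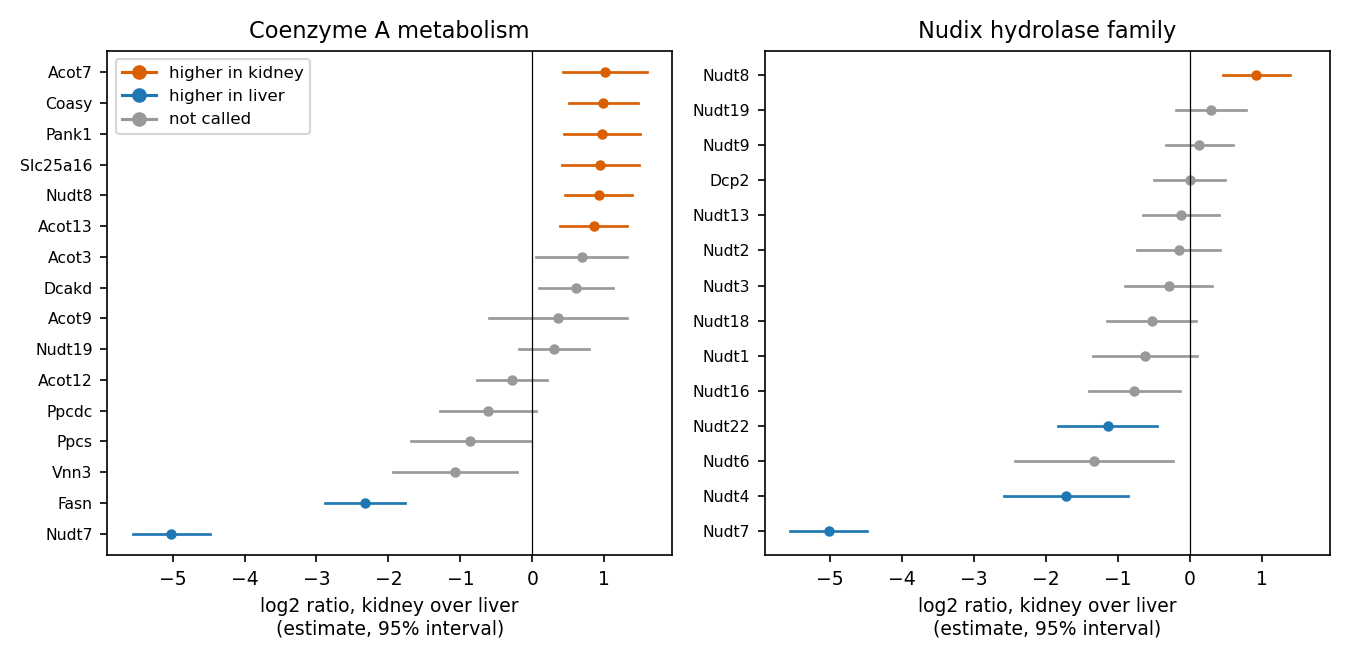
Log2 ratio of kidney over liver (x axis, estimate with 95% interval) for 16 genes of coenzyme A metabolism (left) and 14 Nudix genes (right). Orange marks genes called higher in kidney, blue those called higher in liver, and grey those not called. Nudt7 lies at the bottom of both panels, at -5.02.

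Liver transcription factors were mixed. Of 15 tested, 1 passed on the kidney side and 5 on the liver side, beside 4.82% and 7.41% of all features, with a median of -0.72. Higher in liver were Dbp, a clock output factor (-3.96), Nr5a2 (-2.23), Nr1i2, the pregnane X receptor (-1.81), Nr0b2 (-1.66) and Rxra (-0.81), the last with an adjusted p of 0.301 after centring and 0.307 under the replicate block. Hnf4a, a nuclear receptor that both hepatocytes and proximal tubules use, was 2.59-fold higher in kidney (1.37, adjusted p = 0.00362), with 0.0536 as adjusted p under the replicate block. Among 10 tested genes of the 32 on the list of sex-biased or growth hormone dependent liver genes, beside the same background, 1 was higher in kidney, Ntrk2 (1.27), with 0.0913 as adjusted p under the replicate block, and 5 in liver. The 5 in liver were Mup3, a major urinary protein (-7.89), Serpina1e (-6.59), Cyp2d9, a male-biased cytochrome (-3.72), Egfr (-2.26) and Cyp7b1 (-2.10). The 2 probes of Ntrk2 disagree, at 3.35 and -0.80. Near-identical family members can share a probe, so the values of Mup3, Serpina1e and the hepatocyte marker Serpina1b may not be specific to one gene. This was not tested.

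Markers of other liver cells differed by less than the 3 genes. Among those tested only Clec4f and Eng have a bright probe, whereas the probes of the 3 genes are all bright. The comparison of sizes therefore mostly sets probes that are not bright against bright ones. Apart from C1qa, the values of these markers were lowest in mouse 2, whose scaling is unsettled. Des read -1.90 and -1.84 in mouse 2, and -0.76, -0.65 and -0.12 in its other averages. Of 3 Kupffer cell markers tested, 2 were higher in liver, Clec4f (-1.91) and C1qa (-1.13), beside 7.41% of all features. The third, C1qb, read 0.31. C1qa lost its call under the replicate block (adjusted p = 0.169) and after centring (0.0578), where C1qb was called higher in kidney (0.0164, limma). None of 4 markers of stellate cells and fibroblasts passed, with a range of -1.10 (Des) to 0.66 (Col1a1), nor did the 1 endothelial marker tested, Eng (-0.10). After centring Des was called higher in liver (adjusted p = 0.0346) and Col1a1 higher in kidney (0.000975), and the 2 probes of Col1a1 disagree, at 1.15 and -0.98. On the kidney side, beside 4.82% of all features, 2 of 2 markers of the distal nephron and 2 of 2 of podocytes were called. Whether these cell types have a part in the 3 genes was not tested.

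The genes whose ratios lay nearest to each member over the 6 averages were found among 7513 genes by the root mean square difference. Nearest to Igf1 were H2-Q10, a secreted class I molecule (0.331), F5, coagulation factor V (0.360), Fga, a fibrinogen chain (0.369), Mmgt2 (0.381) and the ubiquitin ligase Nedd4 (0.456). Nearest to Igfbp2 were Coch (0.294), Fam25c (0.325), Serpina6, the corticosteroid-binding globulin (0.338), Sec14l4 (0.349) and Cp, ceruloplasmin (0.390). Nearest to Nudt7 were Proca1 (0.231), Ano6, a lipid scramblase (0.353), Pon1, paraoxonase (0.398), Cpn1, a carboxypeptidase subunit (0.443) and Cfi, complement factor I (0.452). The averages share the pools and the mice, and the measure mainly picks genes with a like organ ratio.

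**Figure D4:**
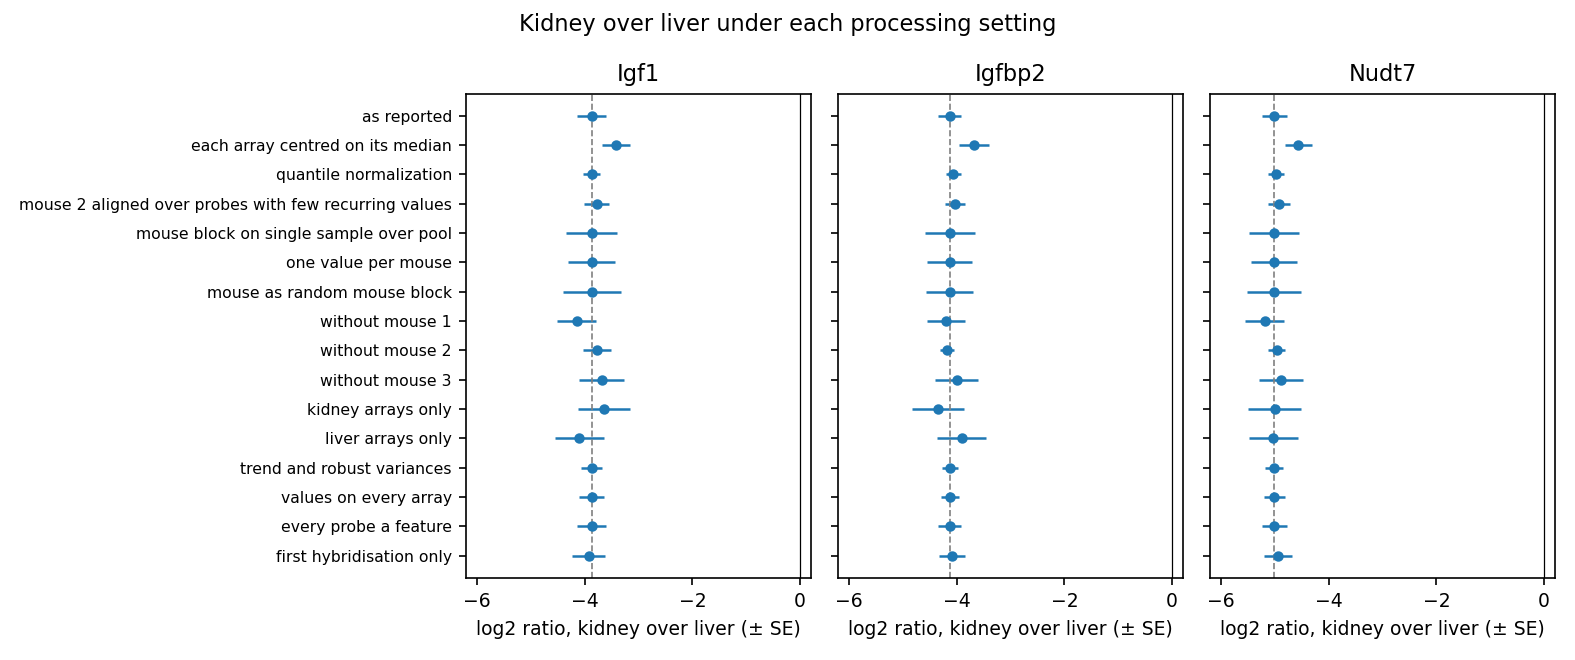
Log2 ratio of kidney over liver (x axis, estimate ± SE) of Igf1, Igfbp2 and Nudt7 as reported and under 15 other settings (y axis), with the reported estimate as a dashed line and 0 as a solid line. Estimates ranged from -4.16 to -3.42 for Igf1, from -4.35 to -3.68 for Igfbp2 and from -5.19 to -4.56 for Nudt7, and none came near 0.

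Under the 15 other settings of scaling, variance, filter and left-out mice shown in the plot of settings, each of the 3 genes was called higher in liver. The largest adjusted p was 0.00141 for Igf1, 0.00134 for Igfbp2 and 0.000707 for Nudt7 (limma), all without mouse 1.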

How the data were processed

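RNA of single kidneys and livers was hybridised against pools of the other organ on 2-colour cDNA arrays. Per the labels, 20 µg of total RNA was labelled with Cy3 or Cy5, the local background was subtracted from mean intensities in GenePix Pro, and ratios were scaled to a median of 1. The deposited values were used as log2 ratios. The base was not stated: 140 of 144 spacings between frequent values matched a log2 ratio of integers no larger than 10 (tolerance 1e-04), while log10 gave 16 and the natural logarithm 0. Dyes per array were not given, and intensities and depth are unknown. Each array had 15480 to 19432 values.

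Of the probes, 11723 had 1 symbol, 806 several and 7890 none, and 11592 matched RefSeq (GRCm38.p6). Probes of a gene were averaged, probes without a single symbol stayed separate, and hybridisations of a mouse and organ were averaged. The 6 averages were modelled in limma 3.58.1 (R 4.3.3) with a term for the array kind, for features measured in at least 2 mice of each organ. Mice were compared on single arrays, each centred on its median, with the moderated F of limma. P-values are two-sided, Benjamini-Hochberg adjusted over all features, called under 0.05. A probe was bright where at most 10% of its values recurred on an array over the 10 arrays of mice 1 and 3. The fit was tested on simulated data with averages drawn independently. That test does not cover averages of a mouse that deviate together. Figures used matplotlib 3.10.9.

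Per the labels, mouse numbers mark the same animals in both organs. Deviations of a mouse as kidney over liver correlated between its organs at 0.579, 0.789 and 0.573 for mice 1, 2 and 3 over 13513 features, which are not independent. Whether the scaling of mouse 2 has a part in these correlations was not tested. A replicate block was an alternative, beside scaling, averaging, filters, variance settings and left-out mice. The members, lists and rules were chosen with earlier results of these data known. Genes named are the members, the main pathway and coenzyme A genes whatever their values, up to 8 further called genes per list by size, marker genes and the 5 genes nearest to each member.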

Additional observations from a re-analysis of the deposited data

How the results depend on the processing

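Igf1, Igfbp2 and Nudt7 kept their direction and call in kidney against liver in 15 of 15 alternatives each. Leaving out a mouse gave -4.16 to -3.69 for Igf1, -4.20 to -4.00 for Igfbp2 and -5.19 to -4.89 for Nudt7. The number of features called, 2066 as reported, became 4969 after centring, 12386 after quantile normalization, 1047 with the replicate block (fitted as sample over pool), 828 with one value per mouse, 822 with mouse as a random replicate block, 724 on kidney arrays only and 1349 on liver arrays only, and 642 to 4433 without one mouse. The split of calls moved with scaling, with 2966 higher in kidney and 2003 in liver after centring, 1718 and 10668 after quantile normalization and 2454 and 1979 without mouse 2, against 814 and 1252 as reported. Of the hormone pathway 9 genes were called as reported, 17 after centring, 26 after quantile normalization and 5 to 14 without one mouse. Of coenzyme A metabolism 8 were called as reported, 14 after quantile normalization and 2 with the replicate block, with one value per mouse, with mouse as a random replicate block and on either kind of array alone, and 2 to 10 without one mouse. Of the Nudix family 4 were called as reported, 9 after quantile normalization, 2 with the replicate block, with one value per mouse and on liver arrays only, 1 with the random replicate block and on kidney arrays only, and 1 to 5 without one mouse. The cause was not tested. The replicate block changed no call of the 3 members. Members that differed between mice on kidney arrays numbered 2 as centred, beside 47.5% of all features, and 0 as deposited, beside 75.8%. They numbered 0 after quantile normalization, whose share of all features is not given here, and 0 without replicate 2, beside 0.051% as deposited. On liver arrays they numbered 3 as centred, beside 37.4% of all features, and 2 as deposited, beside 86.4%. They numbered 1 after quantile normalization, again without a share given here, and 1 without replicate 2, beside 1.19% as deposited. None of the 3 passed the test between the kinds of array in 6 of 6 alternatives, which does not show that both kinds gave equal ratios.

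The precision is limited by 3 mice per organ, by 1 kidney array of mouse 3 and by pools without spread. The direction of the ratio rests on marker genes, and the scaling of mouse 2 is unsettled.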
